A study of Mus musculus with 24 samples.

Results

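The muscle miRNAs described here are 8 mature miRNAs of the miR-1, miR-133, miR-206, miR-208 and miR-499 families, often called myomiRs: mmu-miR-1a-3p, mmu-miR-133a-3p, mmu-miR-133a-5p, mmu-miR-133b-3p, mmu-miR-206-3p, mmu-miR-208a-3p, mmu-miR-208b-3p and mmu-miR-499-5p, written below without the prefix for mouse. They were chosen by name from the 1966 mature miRNAs of the count table, by a rule that uses no level, although earlier results of these data were known when the list was drawn up. Of these 8, 7 had at least 1 count in the 24 libraries and 6 had enough counts to be tested, as part of the 252 miRNAs tested in all. Small RNA was sequenced from extracellular vesicles (EVs) of mouse serum, in 1 library per mouse and 6 mice per group. All mice were male wild type C57BL/6 of 14-16 weeks. The Control group had no surgery and received saline. The S6h, S24h and S72h groups were sampled 6, 24 and 72 h after an open fracture of the tibia under isoflurane and buprenorphine, in which the muscles of the hind limb were separated and a steel pin was placed in the bone. The S24h and S72h mice received analgesia daily, which the S6h mice did not. Blood was drawn with a needle from the left ventricle of the heart in every group. The Control mice were those assigned to the S6h group from the same batch of animals. The control mice assigned to the S24h and S72h groups were not analysed here. The study used a single set of controls because it had found no statistical difference between its control groups, which was not tested here. Time after surgery, daily analgesia and any difference in batch cannot be told apart when S24h or S72h is compared with Control or with S6h. Surgery, isoflurane and buprenorphine cannot be told apart when S6h, S24h or S72h is compared with Control, since no group had anesthesia alone. The EVs were precipitated from serum with ExoQuick ULTRA, and their number was not measured by these counts.

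MyomiRs are made almost entirely in striated muscle and belong to the most abundant small RNAs of muscle fibres. miR-1 and miR-133 are transcribed together in skeletal muscle and heart, where miR-1 promotes the differentiation of muscle cells and miR-133 supports the proliferation of their precursors and restrains serum response factor. miR-206 and miR-133b come from a further transcript that is used in skeletal muscle and not in heart, and miR-206 takes part in regeneration and in the repair of the neuromuscular junction. miR-208a, miR-208b and miR-499 lie in introns of myosin heavy chain genes and help to set the myosin and fibre type, with miR-208a made in heart and the other two in heart and slow fibres. Injury of muscle fibres releases myomiRs into blood, and for this reason they are used as serum markers of muscle damage.

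The mature sequences are shown because the families are defined by the seed, the bases 2 to 8 that pair with target mRNAs, given here in capitals. The set of RefSeq sequences used here (GRCm38.p6) included 5 of the 8 members under these names, printed 5′ to 3′.
miR-206-3p: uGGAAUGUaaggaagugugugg
miR-133b-3p: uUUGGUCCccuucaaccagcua
miR-499-5p: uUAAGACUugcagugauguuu
miR-208a-3p: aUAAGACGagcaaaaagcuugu
miR-208b-3p: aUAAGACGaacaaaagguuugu
miR-208a-3p and miR-208b-3p had the same seed and were identical at 19 of 22 positions, with the substitutions G10A, A16G and C18U counted from the 5′ end of miR-208a-3p. The seed of miR-499-5p matched theirs except for its last base. As background, miR-206 has the seed of miR-1, and miR-133b-3p is nearly identical to miR-133a-3p. Reads cut short at the end where miR-133a-3p and miR-133b-3p differ can match both, so the division of counts between this pair is uncertain.

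On GRCm38, Mir206 (chr1:20679010-20679082) and Mir133b (chr1:20682769-20682887) lay 3686 bases apart on the plus strand, both in exons of the long noncoding RNA Gm28653. Mir1a-1 (chr2:180389048-180389124) and Mir133a-2 (chr2:180398379-180398482) lay 9254 bases apart on the plus strand outside any other annotated gene. Mature miR-1a and miR-133a each have a second hairpin elsewhere in the genome, so their counts cannot be assigned to 1 locus. Mir208a (chr14:54949060-54949142) was in an intron of Myh6 and Mir208b (chr14:54975700-54975776) in an intron of Myh7, both on the minus strand, with 26557 bases between them. Mir499 (chr2:155622880-155622958) was in an intron of Myh7b, on the plus strand. Myh6, Myh7 and Myh7b encode myosin heavy chains. The hairpins of miR-499 and miR-208a are printed with both mature arms in capitals, since counts from either arm are described below.
Mir499: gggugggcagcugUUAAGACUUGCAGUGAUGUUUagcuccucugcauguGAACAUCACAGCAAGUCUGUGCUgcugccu
Mir208a: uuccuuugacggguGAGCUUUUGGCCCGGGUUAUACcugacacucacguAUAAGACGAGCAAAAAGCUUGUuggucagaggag

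Total counts were 63956 to 471801 per library, with medians of 117578.5 in Control, 177467.5 in S6h, 75030 in S24h and 94427.5 in S72h. Levels are given as CPM, counts scaled by the total of the library, a relative measure in which a rise of some miRNAs lowers all others. A count of 0 allows up to 3 counts, or 6.36 to 46.9 CPM depending on the library, and such limits and intervals cover counting error only. As in any bulk sample, fewer EVs that carry a miRNA and fewer copies per EV cannot be told apart.

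The muscle miRNAs made up a large and very uneven part of the serum EV miRNAs. Together they held 3.42 to 9.03% of all counts in the Control group (median 5.33%) and 6.02 to 26.6% in the S6h group (median 11.8%). They held 1.57 to 4.36% in the S24h group (median 3.35%) and 0.653 to 23.8% in the S72h group (median 2.78%). The S6h libraries were mostly above Control and the S24h libraries mostly below it, while the S72h group was spread over almost the whole range of the series. A total of 3 libraries stood far above the rest: S6h replicate 4 with 26.6% (95% Wilson interval 26.4 to 26.7), S6h replicate 2 with 25.2% (24.95 to 25.4) and S72h replicate 1 with 23.8% (23.6 to 23.9). The other 5 S72h libraries held 0.653 to 5.09%.

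**Figure D1:**
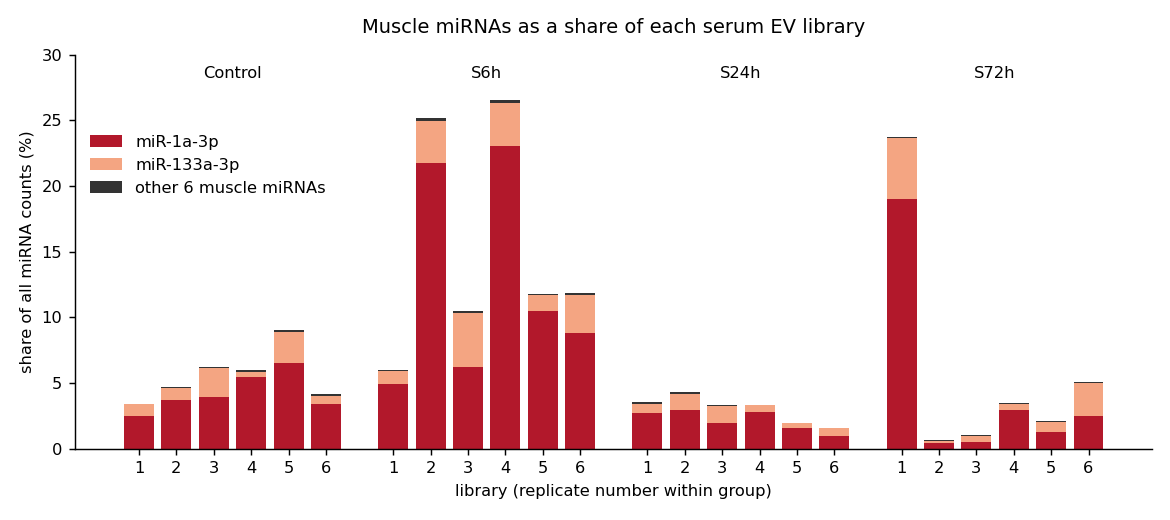
Share of all miRNA counts (%, vertical axis) held by the muscle miRNAs in each of the 24 libraries, grouped by Control, S6h, S24h and S72h, with miR-1a-3p, miR-133a-3p and the sum of the other 6 stacked in each bar. S6h replicates 2 and 4 and S72h replicate 1 reached 23.8 to 26.6%, and the other 21 libraries stayed at 11.8% or below.

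miR-1a-3p supplied most of this signal. It was 48.0 to 91.1% of the muscle miRNA counts of a library (median 75.2%), and miR-133a-3p was 6.69 to 49.5% (median 21.2%), so that the remaining members were minor in every group. In the S6h group miR-1a-3p was the most abundant of all miRNAs in 4 of 6 libraries, with ranks of 1 to 5 by counts. Its rank was 2 to 12 in Control, 9 to 27 in S24h and 1 to 45 in S72h.

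The level of miR-1a-3p was 24942 to 65232 CPM in Control with a median of 38558 CPM. In the S6h group it was 49530 to 230400 CPM with a median of 96644 CPM. Every S6h library was above the Control median and 4 of 6 were above the highest Control library, but the groups overlapped. In the S24h group it was 9690 to 29295 CPM with a median of 23192 CPM. All S24h libraries were below the Control median, 3 of them below the lowest Control library, and all 6 were below the lowest S6h library. In the S72h group it was 4786 to 189945 CPM with a median of 18981 CPM. Replicate 1 was the single S72h library above the Control range, and the other 5 were below the Control median.

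miR-133a-3p followed the same order of medians in a narrower range. It was 4008 to 23935 CPM in Control (median 8824 CPM) and 9891 to 40889 CPM in S6h (median 30186 CPM). It was 3918 to 13123 CPM in S24h (median 6397 CPM) and 1474 to 47046 CPM in S72h (median 6335 CPM). Again 4 of 6 S6h libraries exceeded the highest Control library, 4 of 6 S24h libraries were below the lowest S6h library, and S72h replicate 1 was the highest library of the series. The medians of S24h and S72h differed by far less than the spread within either group.

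miR-133a-5p, the opposite arm of the miR-133a hairpin, was counted in 18 of 24 libraries with at most 110 counts in 1 library. It was 0 to 115 CPM in Control (median 23.8 CPM), 20.7 to 432 CPM in S6h (median 229 CPM), 0 to 443 CPM in S24h (median 87.9 CPM) and 0 to 351 CPM in S72h (median 63.7 CPM). In S6h, 5 of 6 libraries were above the highest Control library. Over all libraries 132 counts of miR-133a-3p were seen per count of miR-133a-5p. This ratio differed between groups, with 321 in Control, 126 in S6h, 59.1 in S24h and 147 in S72h. Every library with the 5p arm also had the 3p arm.

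The skeletal muscle pair miR-206-3p and miR-133b-3p was far less abundant than miR-1a-3p and miR-133a-3p. miR-206-3p was 83.8 to 1229 CPM in Control (median 608 CPM) and 292 to 1751 CPM in S6h (median 651 CPM). It was 0 to 1463 CPM in S24h (median 429 CPM) and 91.3 to 397 CPM in S72h (median 223 CPM). Control and S6h overlapped widely, S24h reached from high libraries to a count of 0, and all 6 S72h libraries were below the Control median and the S6h median. miR-133b-3p was at the edge of detection, with at most 39 counts in a library and none in 4 of the 24. Its medians were 12.7 CPM in Control, 83.3 CPM in S6h, 46.3 CPM in S24h and 19.9 CPM in S72h. Although both lie in the same transcript annotation, 14.2 counts of miR-206-3p were found per count of miR-133b-3p over all libraries.

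miR-499-5p, the member from the Myh7b intron, had few counts and its highest median in S6h. It reached 10 CPM in 4 Control, 6 S6h, 2 S24h and 5 S72h libraries. It passed the filter on low counts, which required 12 libraries, only with the S6h libraries included. It was 0 to 335 CPM in Control (median 89.7 CPM) and was counted in 4 of 6 libraries. It was 104 to 711 CPM in S6h (median 479 CPM) and was counted in all 6. It was 0 to 104 CPM in S24h (median 0 CPM), where 2 of 6 libraries held 4 and 15 counts and the others none. In S72h it was 0 to 232 CPM (median 94.6 CPM) with counts in 5 of 6 libraries, close to Control. Of the S24h libraries, 5 were below the lowest S6h library, and the highest S24h library lay just above it.

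The heart-restricted member was near the limit of detection. miR-208a-3p had 19 counts in 4 libraries, 6 each in S6h replicates 2 and 4 and in S72h replicate 1, and 1 in S72h replicate 6. It had none in Control and S24h. It did not pass the filter on low counts and was not called in any comparison without that filter. The 3 libraries with 6 counts are those with the largest share of muscle miRNAs. miR-208b-3p had no count in any library, which allows up to 46.9 CPM in the smallest of them.

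**Figure D2:**
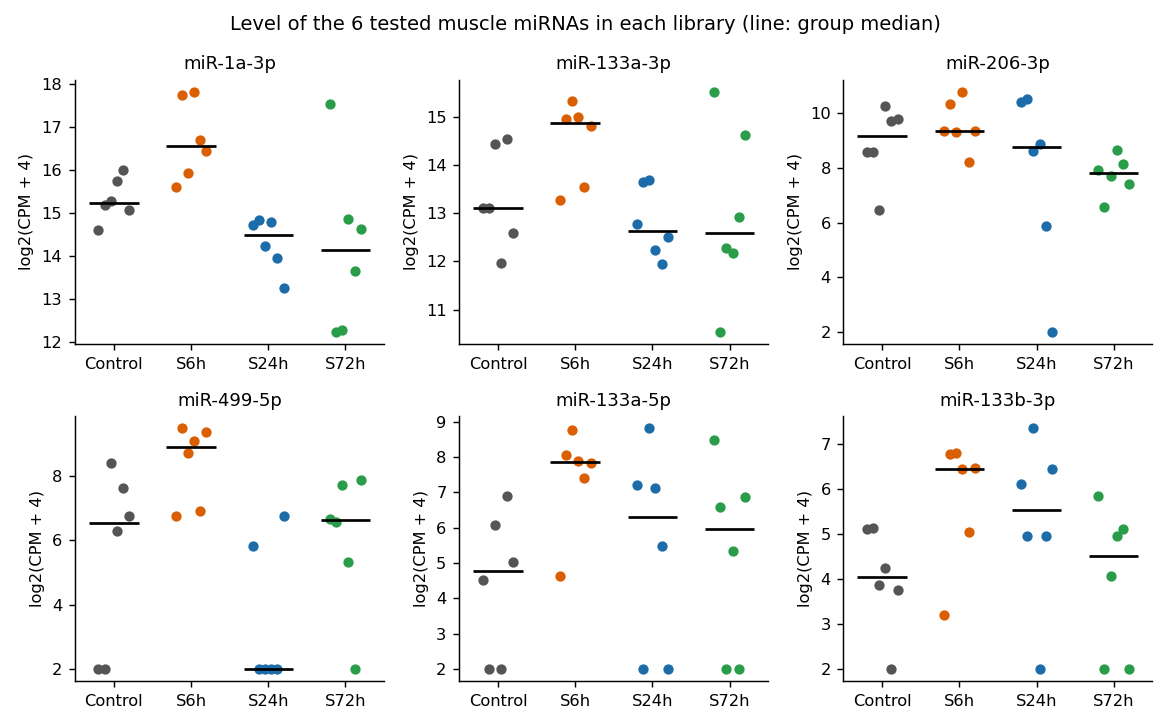
Level of the 6 tested muscle miRNAs as log2(CPM + 4) (vertical axis) in each library of Control, S6h, S24h and S72h, with points for libraries and lines for group medians. The S24h and S6h libraries of miR-1a-3p did not overlap, S72h replicate 1 was the highest S72h library of miR-1a-3p, miR-133a-3p and miR-133a-5p, and 4 S24h libraries of miR-499-5p were at a count of 0.

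The first question was whether the muscle miRNAs differed 6 h after surgery, in mice whose controls came from the same batch. The S6h mice had also received isoflurane and buprenorphine, and the Control mice saline. All 6 tested members had a higher estimate in S6h than in Control, and none passed the test. The median log2 fold change of the 6 was 1.83, against -0.02 over all 252 tested miRNAs. The estimate for miR-1a-3p was 1.67 on the log2 scale (95% interval 0.36 to 2.99), or 3.19-fold, with an adjusted p of 0.991 (edgeR quasi-likelihood test with Benjamini-Hochberg adjustment over all tested miRNAs). Before adjustment its p was the second smallest of all tested miRNAs.

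The other members ranged from 0.57 for miR-206-3p (95% interval -0.89 to 2.03) to 2.64 for miR-133a-5p (0.21 to 5.07), all with an adjusted p of 0.991 by edgeR. Before adjustment 3 members were under the threshold of 0.05, miR-1a-3p, miR-133a-3p (log2 fold change 1.18) and miR-133a-5p. The background was 3.57% of all tested miRNAs before adjustment, and 0.0% were called after it. DESeq2 called no member either, and its adjusted p was 0.699 for miR-1a-3p. The intervals of miR-1a-3p and both miR-133a arms lay above 0 and those of the other 3 included 0. No estimate changed direction in any alternative analysis or with any library left out. With single libraries left out, miR-1a-3p ranged from 1.34 to 1.85, miR-206-3p from 0.17 to 0.94 and miR-133a-5p from 2.38 to 3.32. The call depended on the analysis for miR-1a-3p, since without the filter on low counts the adjusted p was 2.79e-05 in edgeR (log2 fold change 1.59).

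From S6h to S24h the muscle miRNAs miR-1a-3p, miR-133a-3p and miR-499-5p fell. All 6 tested members had a lower estimate in S24h, in each alternative analysis, and these 3 were called lower. Among all tested miRNAs 13.9% were called lower and 20.2% were called in either direction. The median log2 fold change was -1.49 over the 6 members and -0.23 over all tested miRNAs. miR-1a-3p fell by 2.80 on the log2 scale (SE 0.67, 6.94-fold, edgeR adjusted p = 0.00305), and it was the member whose groups did not overlap, as for 10.3% of all tested miRNAs. miR-133a-3p fell by 1.97 (SE 0.59, 3.91-fold, edgeR adjusted p = 0.0169).

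miR-499-5p fell by 4.19 on the log2 scale (SE 1.17, edgeR adjusted p = 0.0112). Its fitted 18.3-fold difference rests on 614 counts in the S6h group and 19 counts in the S24h group, and its 95% interval ran from -6.57 to -1.82. It was tested only because the S6h libraries, where its median was highest, brought it past the filter. The estimates of the 3 members that were not called were -1.01 for miR-133a-5p (95% interval -3.30 to 1.28), -0.77 for miR-206-3p (-2.25 to 0.70) and -0.44 for miR-133b-3p (-2.65 to 1.76). These intervals include both no change and a fall as large as that of miR-133a-3p. With single libraries left out they ranged from -1.97 to -0.73, from -1.21 to -0.37 and from -1.001 to -0.20. For miR-206-3p the call depended on the tool, since limma-voom gave -2.81 and called it lower (adjusted p = 0.0247), the 1 of 17 other analyses to do so.

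The 3 calls were made with each of the 24 libraries left out in turn. Their log2 fold changes then ranged from -2.97 to -2.46 for miR-1a-3p, from -2.17 to -1.83 for miR-133a-3p and from -5.46 (without S24h replicate 6, which held 15 of the 19 counts of that group) to -3.92 for miR-499-5p. miR-1a-3p and miR-499-5p were also called in all 17 other analyses. miR-133a-3p was called in 15 of them, and missed the threshold in the exact two-sided permutation test of log2 CPM (adjusted p = 0.0574) and in the edgeR test against a minimum fold change (adjusted p = 0.0529). The S6h and S24h mice differ in daily analgesia as well as in time.

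Against Control, no member was called at 24 h, where 11.9% of all tested miRNAs were. miR-1a-3p had a log2 fold change of -1.12 (95% interval -2.42 to 0.17, edgeR adjusted p = 0.234), miR-133a-3p of -0.78 (-1.94 to 0.37, edgeR adjusted p = 0.396) and miR-499-5p of -2.22 (-4.46 to 0.02, edgeR adjusted p = 0.176). With single libraries left out, miR-499-5p ranged from -3.34 (without S24h replicate 6) to -1.54 (without Control replicate 3). The low-count miR-133a-5p and miR-133b-3p had higher estimates of 1.63 each, with intervals that included 0. Without S24h replicate 3 these were 0.67 and 1.08. miR-206-3p had -0.20. The median was -0.49 over the 6 members and -0.21 over all tested miRNAs. When the model held the libraries of S24h and Control alone, miR-1a-3p was called lower (edgeR adjusted p = 0.0165), and likewise without the filter on low counts (edgeR adjusted p = 0.00761).

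**Figure D3:**
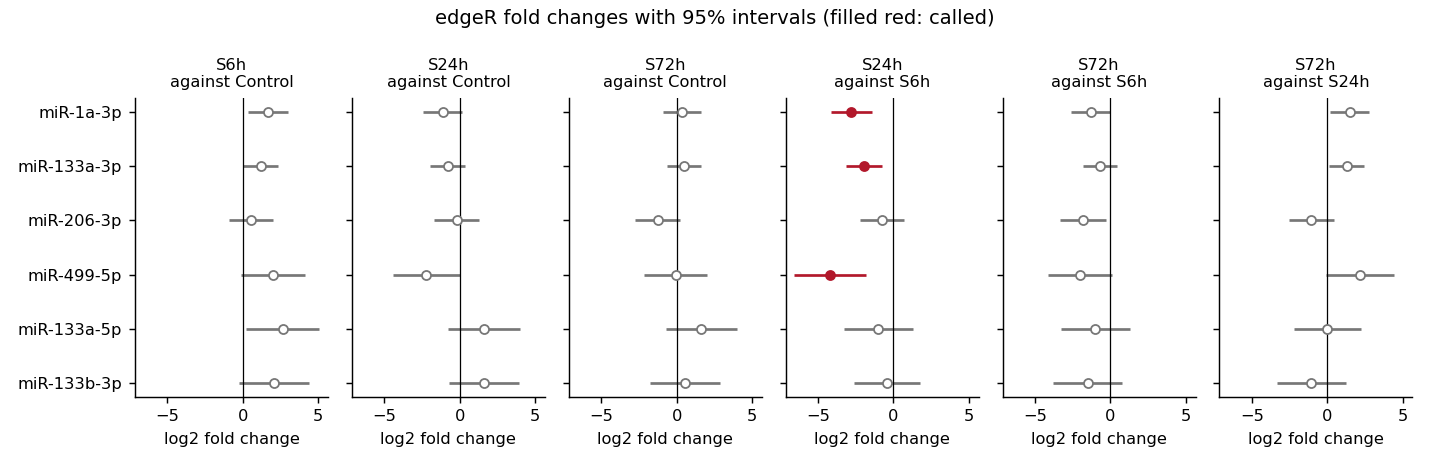
edgeR log2 fold changes (horizontal axis) of the 6 tested muscle miRNAs in the 6 comparisons, with points for estimates, lines for 95% intervals and filled red points for calls. Calls were made in the comparison of S24h with S6h, for miR-1a-3p (-2.80), miR-133a-3p (-1.97) and miR-499-5p (-4.19).

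At 72 h the estimates of miR-1a-3p, miR-133a-3p, miR-133a-5p and miR-133b-3p depended on 1 mouse. No member was called in S72h against Control, where 3.57% of all tested miRNAs were, or in S72h against S24h, where 0.397% were. In S72h against S6h no member was called either, and the background was 9.92%. miR-1a-3p had a log2 fold change of 0.36 against Control although 5 of 6 S72h libraries were below the Control median. Without S72h replicate 1 it was -1.19 (edgeR adjusted p = 0.178).

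Against S6h, miR-1a-3p had -1.31 with all libraries (edgeR adjusted p = 0.228) and -2.87 without S72h replicate 1, where it was called lower (edgeR adjusted p = 0.00280). Against S24h it had 1.48 with all libraries (edgeR adjusted p = 0.431) and -0.07 without that replicate. miR-133a-3p moved in the same way, from 0.49 to -0.46 against Control and from -0.69 to -1.64 against S6h, where it too was called lower without S72h replicate 1 (edgeR adjusted p = 0.0410). miR-133a-5p had 1.65 against Control and 0.02 against S24h, and 0.46 and -1.17 without that replicate. miR-133b-3p, with at most 13 counts in an S72h library, had 0.57 against Control and -0.07 without S72h replicate 1. Without this replicate the S72h values of miR-1a-3p and miR-133a-3p were close to those of S24h, with log2 differences of -0.07 and 0.33. With all libraries, miR-1a-3p was called lower against S6h by limma-voom (-2.38, adjusted p = 0.00663), and without the filter on low counts it was called lower against S6h and, with miR-133a-3p, higher against S24h.

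miR-206-3p did not share this dependence. Its log2 fold change in S72h was -1.25 against Control (95% interval -2.75 to 0.26, edgeR adjusted p = 0.397) and -1.82 against S6h (-3.34 to -0.30, edgeR adjusted p = 0.117). Without S72h replicate 1 these were -1.28 and -1.85. It was called lower against S6h without S72h replicate 4 (edgeR adjusted p = 0.0455) and in no other analysis with a library left out, and when the model held the S6h and S72h libraries alone (edgeR adjusted p = 0.0283). miR-499-5p had a log2 fold change of -0.06 in S72h against Control, with a wide interval of -2.14 to 2.03.

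**Figure D4:**
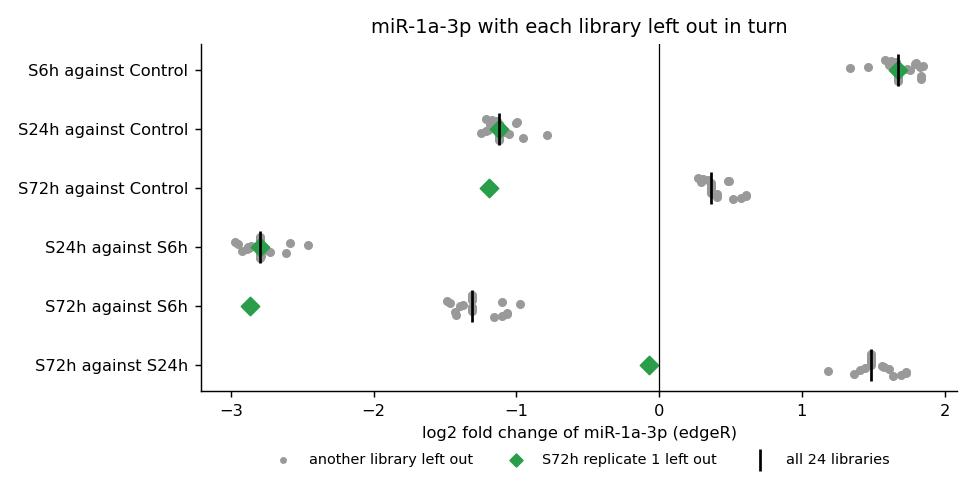
edgeR log2 fold change of miR-1a-3p (horizontal axis) in the 6 comparisons, with a vertical bar for all 24 libraries, grey points for each other library left out and a green diamond for S72h replicate 1 left out. The 3 comparisons with S72h moved with this replicate, for example from 0.36 to -1.19 against Control, while S24h against S6h stayed between -2.97 and -2.46.

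The members of 1 library were then compared with each other. The number of miR-1a-3p counts per miR-133a-3p count was 0.998 to 13.6, with medians of 3.53 in Control, 5.94 in S6h, 3.09 in S24h and 2.45 in S72h. The groups overlapped widely, and Control replicate 4 had the highest value of the series. Correlations were computed over the 24 libraries after the group mean of log2(CPM + 4) was removed, for the 15 pairs of tested members, with permutations within groups and adjustment over the 15 pairs. miR-1a-3p and miR-133a-3p had a Pearson r of 0.652 (permutation adjusted p = 0.0908) and a Spearman rho of 0.502 (permutation adjusted p = 0.145). Without the 2 libraries farthest from the median, S72h replicates 1 and 2, r was 0.340, so much of this relation rests on those mice.

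miR-1a-3p and miR-206-3p were the pair that passed the threshold, with r = 0.393 (p = 0.00160, adjusted p = 0.024) and rho = 0.550 (p = 0.00298, adjusted p = 0.0447) by the permutation test. Without the same 2 libraries r was 0.497. Both arms of miR-133a had r = 0.428 (permutation adjusted p = 0.248). miR-206-3p and miR-133b-3p, from the same transcript, had r = -0.021, at a depth of at most 39 counts for miR-133b-3p. All members of a library share its depth and its total.

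**Figure D5:**
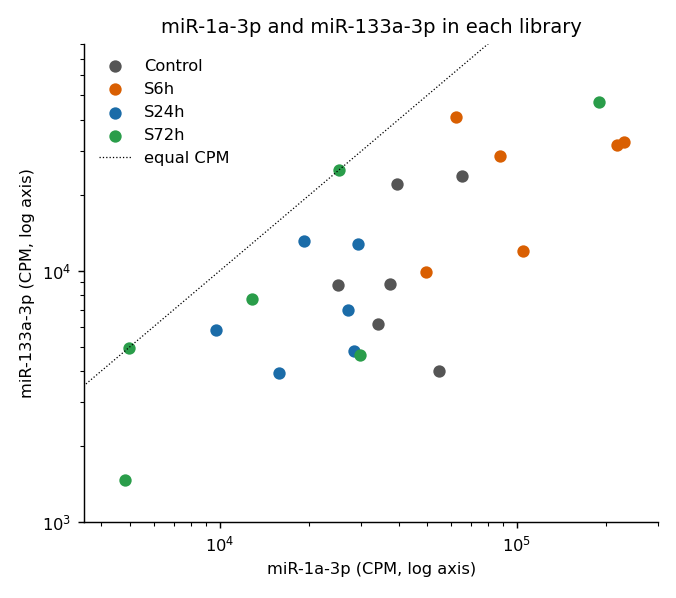
miR-133a-3p (CPM, vertical log axis) against miR-1a-3p (CPM, horizontal log axis) in the 24 libraries, coloured by group, with a dotted line of equal levels. The ratio of miR-1a-3p to miR-133a-3p ran from 0.998 to 13.6, and S6h replicates 2 and 4 and S72h replicate 1 had the highest miR-1a-3p.

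Other arms and paralogs of the same hairpins, 10 mature miRNAs, were too rare to be tested. miR-208a-5p, the first capital stretch of the Mir208a hairpin above, had 81 counts in 8 libraries. Of these, 55 were in S6h, 9 in Control, 8 in S24h and 9 in S72h. S6h replicate 4, the library with the largest total, held 33 of the 55. miR-208a-5p thus had more counts than miR-208a-3p, and both arms were seen together in 3 of the 9 libraries with either. miR-499-3p had 25 counts in 5 libraries, each of which also held miR-499-5p. miR-1a-1-5p had 20 counts in 2 S6h libraries, 13 of them in S6h replicate 4. miR-1b-3p had 22 counts, all in S6h replicate 4, and the remaining 6 had none.

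miRNAs that muscle expresses without being restricted to it were counted for comparison. This list of 16 had 13 tested members, of which 0 were called in S6h against Control. In S24h against S6h 7 were called lower and 0 higher, with a median log2 fold change of -1.01, where 13.9% of all tested miRNAs were called lower and their median was -0.23. In S24h against Control 6 were called lower and 1 higher (median -1.10), where 7.94% of all tested miRNAs were called lower and 3.97% higher. In S72h against S6h 6 were called lower, against 5.56% of all tested miRNAs. Its 4 members of highest mean CPM had these values in S24h against S6h. miR-143-3p, a smooth muscle miRNA, fell by 3.54 (edgeR adjusted p = 1.81e-05) and miR-24-3p by 1.01 (edgeR adjusted p = 0.0115). miR-486b-5p, which is also a red cell miRNA, had -0.75 (edgeR adjusted p = 0.187) and miR-26a-5p had 0.78 (edgeR adjusted p = 0.0757).

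Among the tested miRNAs outside the 8, 5 were most like the summed muscle miRNAs in level over the 24 libraries. They were miR-199b-3p (Spearman rho 0.794), miR-199a-3p (0.788), miR-29c-3p (0.770), miR-375-3p (0.748) and miR-27b-3p (0.746). After removal of the group means these rho values were 0.511, 0.571, 0.472, 0.398 and 0.334. The order then changed, and miR-150-3p, which is not among the 5 and had counts in 12 libraries, had 0.621. The libraries share their depth, and the sum is itself part of each total.

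Markers of other sources in serum were set beside these results, and their part in them was not tested. The 8 red cell miRNAs summed to a median of 162648 CPM in Control, 139869 CPM in S6h, 83577 CPM in S24h and 82436 CPM in S72h (libraries from 49188 to 216549 CPM), and 2 of 7 tested were called lower in S24h against S6h. In S24h against Control 4 of the 7 were called lower (median log2 fold change -1.22), where 7.94% of all tested miRNAs were. The 3 smooth muscle miRNAs had medians of 21646, 36966, 11317 and 9897 CPM in the same order (libraries from 7368 to 83110 CPM), and 2 were called lower and 1 higher in S24h against S6h, where 13.9% of all tested miRNAs were called lower and 20.2% in either direction. The 3 liver miRNAs had medians of 76635, 15669, 19621 and 12044 CPM (libraries from 4495 to 306312 CPM), with no call. Among the 5 leukocyte miRNAs 1 was called lower and 1 higher in S24h against S6h, and their sum had its lowest value of the series, 3077 CPM, in S72h replicate 1. Of the 3 platelet and endothelial miRNAs 1 was called lower in that comparison, and of the 2 tested brain miRNAs none was. The heart marker miR-208a-3p was at 0 in 20 of the 24 libraries, and either arm of its hairpin was counted in 9, with 81 counts of miR-208a-5p and 19 of miR-208a-3p in all.

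Deviations of miR-1a-3p from the group means were also compared with 6 other measures over the 24 libraries, with adjustment over the 6. Its r was 0.293 with the reads of all other miRNAs (permutation adjusted p = 0.434), 0.201 with miR-451a of red cells and 0.105 with miR-122-5p of liver. It was -0.367 with miR-223-3p of leukocytes (permutation adjusted p = 0.434) and 0.210 with miR-143-3p of smooth muscle. The relation with miR-126a-3p of endothelium passed the threshold by Pearson's r, -0.557 (permutation adjusted p = 0.0257), and not by Spearman's rho, -0.449 (permutation adjusted p = 0.175). Without S72h replicates 1 and 2 its r was -0.371.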

How the data were processed

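Adapters were removed by the authors with cutadapt, Bowtie was used for alignment to GRCm38, and featureCounts counted reads of 20-24 bases on the miRBase annotation. The deposited values are raw counts without normalization. The treatment of reads that match several miRNAs is not given in the sources used here. The 8 members and the other lists were chosen with earlier results of these data known. CPM were computed from column totals. miRNAs with 10 CPM or more in 12 or more of the 24 libraries were tested, the CPM level being the study's cut-off. One edgeR 4.0.16 quasi-likelihood model with TMM scaling (R 4.3.3) held all 4 groups. Calls required a fold change of 1.5 or more and an adjusted p (Benjamini-Hochberg) below 0.05. Levels on the log2 scale used a pseudocount of 4, and correlations 100000 permutations. The study's tool, DESeq2 (1.42.0), limma-voom (limma 3.58.1), exact permutation tests, other scalings, filters and pseudocounts, a replicate block and leaving out each library were alternatives. Leaving out S6h replicate 4 and S72h replicate 1 together, and totals without the 8 members, were chosen after seeing the data. All 8 members, the other arms, the 4 miRNAs of highest mean CPM in the muscle-expressed list and the 5 most alike miRNAs are named. The model was tested on simulated data. Figures were drawn in Python 3.11.15. No 2 libraries were identical.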

Additional observations from a re-analysis of the deposited data

Results flagged for a closer look

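In a group of 6 libraries, 1 library was marked as lying far from the others when its gap to the nearest library, as a part of the group's range in CPM, exceeded Dixon's 95% limit. Of the 34 groups examined 7 were marked, and 0 of them on the log2 scale. The 1.7 expected at this limit holds for independent, normally distributed values. The groups are not independent, since the sum and the ratio reuse members, so 7 against 1.7 is not a test. S72h replicate 1 was the high library in 4, for miR-1a-3p (gap 0.866 of the range), the sum of the 8 muscle miRNAs (0.808), miR-208a-3p (0.695, from 6 counts) and miR-133a-5p (0.681). The others were S24h replicate 3 for miR-133a-5p (0.674), S6h replicate 2 for miR-208a-3p (0.657, from 6 counts) and Control replicate 4 for the ratio of miR-1a-3p to miR-133a-3p (0.680).

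The differences of S24h and of S6h from the same Control mice were unequal, in a test of the difference itself, for miR-499-5p (-4.19 on the log2 scale), miR-1a-3p (-2.80) and miR-133a-3p (-1.97). These are the values of S24h against S6h by edgeR, in which the shared controls cancel, and in which time and daily analgesia cannot be told apart.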

How the results depend on the processing

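Numbers of muscle miRNAs called moved as follows. Without the filter on low counts 1 was called in S6h against Control, 1 in S24h against Control, 1 in S72h against S6h and 2 in S72h against S24h, of 7 tested, where 2, 38, 23 and 10 of all 667 tested miRNAs were called. With the 2 compared groups alone, 1 of 6 was called in S24h against Control and 1 in S72h against S6h, where 37 and 23 of all 252 were (miR-1a-3p and miR-206-3p). In S72h against S6h, miR-1a-3p was the 1 called by limma-voom and without S6h replicate 4 and S72h replicate 1 together, where 38 and 16 of all 252 were. With each library left out, S72h against S6h had 0 to 2 calls (13 to 35 of all 252), and the 3 calls of S24h against S6h stayed (32 to 53 of all 252). In that comparison limma-voom called 4, with miR-206-3p added (log2 fold change -2.81, adjusted p = 0.0247), while the exact permutation test and the test against a minimum fold change called 2 each. Without miR-1a-3p the summed medians were 9242 CPM in Control, 32192 CPM in S6h and 7291 CPM in S24h. Over pooled libraries, without removal of group means, 4 of the 15 pairs passed the threshold by Pearson's r and 6 by Spearman's rho.

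Estimates that changed direction were not called in either analysis, and the cause was not tested. In S72h against Control, miR-1a-3p became -0.93 with limma-voom, -1.12 with log2 CPM (the exact permutation test) and -1.19 without both libraries, and was -1.19 to 0.61 with single libraries left out. miR-133a-3p became -0.092, -0.29 and -0.46 in the same 3 analyses (-0.46 to 0.76 with single libraries left out). miR-133b-3p became -0.019 with log2 CPM and -0.064 without both libraries (-0.069 to 0.97). miR-499-5p became 1.11 with limma-voom, 0.51 with log2 CPM, 0.11 with upper quartile scaling, 0.0025 with TMM without the muscle miRNAs and miR-122-5p, 0.028 with a mean of 100 CPM and 0.039 with the 2 groups alone (-0.37 to 0.62). In S72h against S24h, miR-1a-3p became -0.10 with log2 CPM and -0.070 without both libraries (-0.070 to 1.73). miR-206-3p became 0.86 with limma-voom and 0.019 with log2 CPM, and in S24h against Control was -0.64 to 0.20 with single libraries left out. miR-133a-5p became -0.31 with DESeq2, -0.23 with log2 CPM, -0.30 with RLE, -0.34 with upper quartile scaling, -0.33 with totals, -0.018 without the filter, -0.083 with a mean of 100 CPM, -0.011 with the 2 groups alone, -1.17 without both libraries and -0.13 with totals without the muscle miRNAs (-1.17 to 0.98).

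Replicate numbers did not pair the mice. Deviations of same-numbered libraries correlated at -0.254 to 0.148, and 6 of 24 libraries correlated best with their own number. With the replicate block 3 of 6 muscle miRNAs were called in S24h against S6h and 1 in S72h against S6h, where 43 and 30 of all 252 were. The latter was miR-1a-3p (edgeR adjusted p = 0.0454), whose estimate in S72h against Control became -0.54.

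The analyses moved the median of all tested miRNAs in S24h against S6h between -0.43 and 0.10. Calls over all tested miRNAs ranged from 23 (test against a minimum fold change) to 66 (limma-voom) in S24h against S6h, from 11 to 50 (DESeq2) in S24h against Control, from 0 to 21 in S72h against Control, from 0 to 38 in S72h against S6h, from 0 to 10 in S72h against S24h and from 0 to 2 in S6h against Control. Depth limits miR-208a-3p, miR-208b-3p, miR-133b-3p, miR-133a-5p and miR-499-5p, each with a median of 11.5 counts per library or fewer.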
